A study of Mus musculus with 12 samples.

Results

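A set of 9 genes that mark mature B lymphocytes was followed in whole bone marrow RNA: the complement and Fc receptors Cr2, Fcer2a and Fcmr, the inhibitory co-receptors Cd22 and Cd72, the membrane proteins Cd37 and Ms4a1, the chemokine receptor Cxcr5 and the adaptor Bank1. They were chosen with earlier results of these data known. By gene name, all 9 were found once each among the 56350 genes of the count table. All 9 also passed the filter on low counts, which left 17475 genes. The samples came from 12 mice of the genotype Shp2E76K/+;LysM-Cre+ on a C57BL/6 background, aged 12 to 14 weeks. Shp2 is the phosphatase encoded by Ptpn11, and its E76K allele, switched on by a Cre recombinase made from the Lyz2 locus in myeloid cells, gives a model of juvenile myelomonocytic leukaemia (JMML). Combo mice received PD-901 (PD0325901, an inhibitor of the kinase MEK) together with 5-azacitidine (a nucleoside analogue used as a hypomethylating drug), 5-azacitidine mice and PD-901 mice received that agent alone, and Vehicle mice received neither drug, with 3 mice in each of the 4 groups. PD-901 was dosed by mouth at 5 mg/kg, 20 times in 4 weeks, and 5-azacitidine into the peritoneum at 5 mg/kg, 5 times in 4 weeks. All 4 groups carried the mutant allele and the Cre, so no level here stands for marrow with wild-type Shp2. The series asks how the drug combination acts in this model.

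B lymphocytes arise in the marrow from precursors that rearrange their immunoglobulin genes and then display a B cell receptor. Cells that pass the immature stage begin to express receptors for complement, IgE and IgM, and chemokine receptors that guide them into follicles. Inhibitory co-receptors set the threshold of the B cell receptor, and of these Cd72 is displayed from the precursor stages onward. Marrow holds late immature B cells and mature B cells that recirculate from the blood, and bulk RNA reads both at once.

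Against Vehicle marrow, 2 of the 9 genes fell in Combo marrow, Cd72 and Cd37, where 7.97% of all tested genes were called lower, and the other 7 passed no threshold. Both calls ended in a fit with sex-linked transcripts as a covariate. Against PD-901 marrow, 5 of the 9 fell in Combo marrow, namely Cd72, Cd37, Fcmr, Cd22 and Ms4a1, where 5.12% of all tested genes were called lower. The calls of Fcmr, Cd22 and Ms4a1 each ended when certain single libraries were left out. Mean levels of all 9 genes were highest in the PD-901 group, that of Cd72 nearly level with Vehicle. None of the 9 passed the threshold between PD-901 and Vehicle. Levels are in CPM, read counts scaled to a common library size with TMM factors. Changes are log2 fold changes ± standard error from edgeR's quasi-likelihood test, two-sided, and a gene was called at a Benjamini-Hochberg adjusted p under 0.05 over all 17475 genes. In bulk marrow, fewer cells of a type and less RNA per cell cannot be told apart.

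Library properties that touch these results are as follows. The labels give each library 1 mouse, but 5 of the 12 libraries (Vehicle 1 and 3, PD-901 2 and 3, 5-azacitidine 2) held both Xist, the transcript of the inactive X chromosome, above 100 CPM and the Y-linked Ddx3y above 10 CPM. Another 6 libraries, among them all 3 Combo libraries, held the Y-linked transcript with Xist at only 0.556 to 7.14 CPM. Vehicle 2 held Xist, with Ddx3y at 0 CPM. Below, no Xist means a level not above 100 CPM. No Vehicle library was of the same kind as the Combo libraries, so the drug and this difference between libraries cannot be told apart there. The covariate used below has the same value in all Combo libraries. Its slope is thus taken from within the other groups and assumed to hold for Combo against Vehicle. In 4 libraries (Vehicle 1 and 2, Combo 1 and 2) Lyz2, a myeloid lysozyme gene, was at 44.9 to 172 CPM, against 700 to 4182 CPM in the other 8. Total counts ran from 15356919 to 27148190 per library. Ptpn11 averaged 147 ± 16.3 CPM in Combo, 136 ± 12.2 in 5-azacitidine, 130 ± 9.23 in PD-901 and 142 ± 7.33 in Vehicle libraries (SD, n = 3 each), and these counts cover the wild-type and the mutant allele together. The summed level of 13 neutrophil and erythroid genes was 32900 to 69400 CPM, so these defining genes of the labelled tissue were abundant in every library.

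Cr2 encodes the complement receptors CD21 and CD35, which amplify the B cell receptor signal of complement-coated antigen. Its levels were 1.78, 5.40 and 2.09 CPM in Combo libraries, 3.03, 7.65 and 1.76 CPM in 5-azacitidine libraries, 6.07, 6.28 and 2.37 CPM in PD-901 libraries, and 1.43, 1.33 and 0.506 CPM in Vehicle libraries. In each treated group all 3 libraries lay above all 3 Vehicle libraries, and the treated groups overlapped each other. Of all tested genes, 16.1% had all libraries higher than Vehicle in Combo, 10.8% in 5-azacitidine and 6.83% in PD-901. The share for all treated libraries at once was not computed. Fcer2a encodes CD23, the low-affinity receptor of IgE. It had 4.33, 8.41 and 4.89 CPM in Combo libraries, 6.00, 9.65 and 4.03 CPM in 5-azacitidine libraries, 10.4, 14.8 and 5.86 CPM in PD-901 libraries, and 3.85, 3.11 and 5.90 CPM in Vehicle libraries. The groups overlapped in every pair, with the highest values in PD-901 1 and 2. Fcmr encodes the Fc receptor of IgM. Its levels were 6.92, 12.3 and 7.14 CPM in Combo libraries, 11.7, 22.1 and 10.05 CPM in 5-azacitidine libraries, 29.4, 30.9 and 15.8 CPM in PD-901 libraries, and 10.4, 9.17 and 8.27 CPM in Vehicle libraries. The 3 PD-901 libraries stood above every Combo library, as for 15% of all tested genes, and above every Vehicle library, as for 6.83%. The Combo and Vehicle libraries overlapped.

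The inhibitory co-receptors differed from each other in their pattern. Cd22 encodes a sialic acid-binding lectin that recruits the phosphatase SHP-1 to the B cell receptor. Its levels were 12.4, 21.0 and 11.2 CPM in Combo libraries, 15.2, 30.5 and 13.8 CPM in 5-azacitidine libraries, 35.8, 44.6 and 29.7 CPM in PD-901 libraries, and 19.1, 26.4 and 24.0 CPM in Vehicle libraries. The PD-901 libraries were above all Combo libraries, as for 15% of all tested genes, and above all Vehicle libraries, as for 6.83%. Combo 2 lay within the Vehicle range. Cd72 encodes a C-type lectin that binds semaphorin 4D and is displayed from the precursor stages onward. It had 6.62, 12.5 and 4.50 CPM in Combo libraries, 16.3, 48.8 and 22.2 CPM in 5-azacitidine libraries, 50.4, 52.7 and 56.2 CPM in PD-901 libraries, and 44.4, 49.3 and 64.6 CPM in Vehicle libraries. Every Combo library was below every library of the other groups, and 5-azacitidine 2 alone of its group reached the range of the Vehicle libraries. By pairs of groups, such a split with Combo lower held for 15.9% of all tested genes against Vehicle. It held for 15% against PD-901 and 9.54% against 5-azacitidine. Of the exon bases of Cd72, 1423 (41.6%) also lie in exons of Tesk1 on the opposite strand. The strand setting of the counting is not stated in the sources used. Whether reads in that stretch were counted for Cd72, for Tesk1 or for neither is thus not known. Over the 12 libraries Tesk1 had 2492 counts and Cd72 9011.

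Cd37 and Ms4a1 encode membrane proteins of the B cell surface, a tetraspanin that other leukocytes also carry and CD20. Cd37 had 196, 226 and 188 CPM in Combo libraries, 272, 303 and 297 CPM in 5-azacitidine libraries, 406, 334 and 315 CPM in PD-901 libraries, and 382, 298 and 287 CPM in Vehicle libraries. All 3 Combo libraries lay below the other 9. Of all tested genes, 15.9% had all Combo libraries below all Vehicle libraries, 15% below all PD-901 and 9.54% below all 5-azacitidine libraries. The share below all of these at once was not computed. Ms4a1 had 4.38, 13.4 and 7.57 CPM in Combo libraries, 8.37, 25.2 and 10.6 CPM in 5-azacitidine libraries, 26.6, 27.9 and 23.3 CPM in PD-901 libraries, and 9.73, 12.7 and 10.3 CPM in Vehicle libraries. The PD-901 libraries were above all Combo libraries, as for 15% of all tested genes, and above all Vehicle libraries, as for 6.83%. The Combo libraries spread on both sides of the Vehicle range.

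Cxcr5 encodes the receptor of the chemokine CXCL13, which draws B cells into follicles, and Bank1 encodes a scaffold protein of B cell receptor signalling with ankyrin repeats. Cxcr5 had 2.75, 7.70 and 5.60 CPM in Combo libraries, 6.20, 6.21 and 2.78 CPM in 5-azacitidine libraries, 3.65, 11.7 and 4.44 CPM in PD-901 libraries, and 4.12, 2.56 and 4.09 CPM in Vehicle libraries. Bank1 had 10.1, 15.3 and 11.6 CPM in Combo libraries, 11.3, 17.1 and 11.3 CPM in 5-azacitidine libraries, 17.5, 18.8 and 10.3 CPM in PD-901 libraries, and 15.7, 11.6 and 11.1 CPM in Vehicle libraries. For both genes the 4 groups overlapped in every pair.

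**Figure D1:**
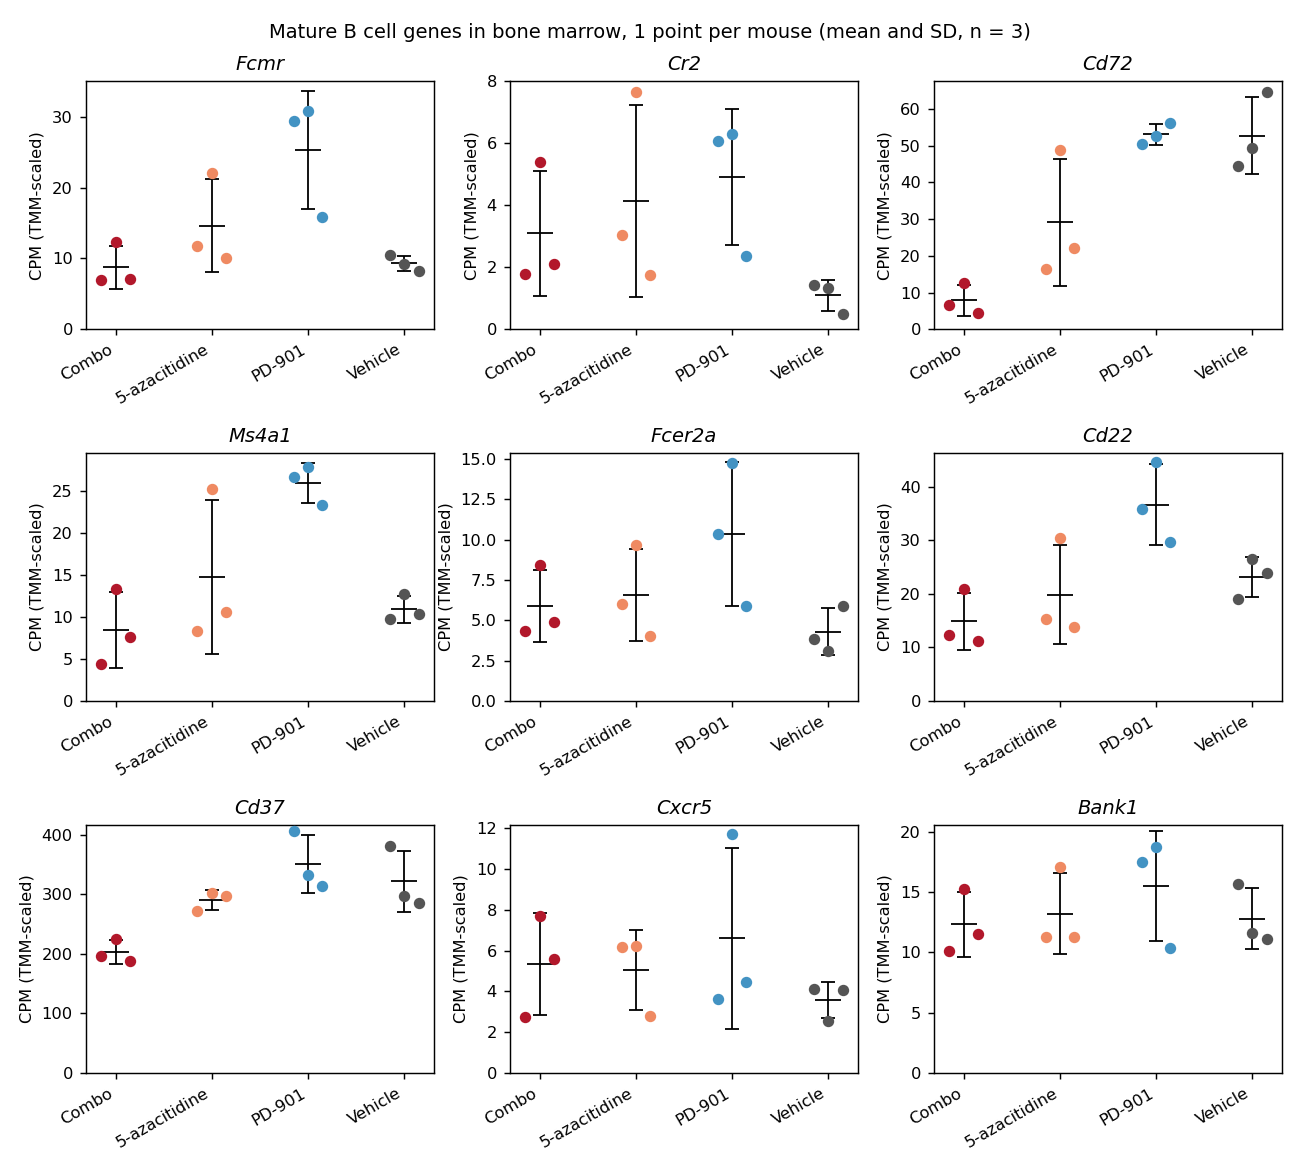
Level of each of the 9 genes in CPM (TMM-scaled, linear axis from 0), 1 point per mouse, with the group mean and SD (n = 3). Cd72 and Cd37 are lowest in the 3 Combo mice, and the PD-901 mice hold the highest group mean of every gene, for Cd72 nearly level with Vehicle.

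Per kilobase of exon, and over all 12 libraries, the genes ranked from Cd37 at 82.8 CPM per kb through Cd72 at 10.4, Fcmr at 8.36, Cd22 at 4.69, Ms4a1 at 2.42, Fcer2a at 2.19, Bank1 at 1.80 and Cxcr5 at 1.55 to Cr2 at 0.408. The rank differed by group: in Combo libraries Cd72 stood at 2.30 CPM per kb, below Fcmr at 5.06 and Cd22 at 2.95, whereas in Vehicle libraries it stood at 15.4, above both. Counts behind a single value ran from 12 for Cr2 to 10240 for Cd37, so the precision of the least abundant gene is limited by its counts as well as by the spread between mice. The joint test over the 4 groups passed the threshold for 3 of the 9 genes, where 6.96% of all tested genes passed it. These were Cd72 (adjusted p = 0.0107), Cd37 (adjusted p = 0.0180) and Fcmr (adjusted p = 0.0217) by edgeR. Cd22 (adjusted p = 0.0519) and Ms4a1 (adjusted p = 0.0598) lay just above it. Cr2 reached 0.137, Fcer2a 0.199, Cxcr5 0.648 and Bank1 0.818. DESeq2 passed 6 of the 9, against 17.3% of all genes, and limma-voom 5, against 7.9%. In edgeR, none of the 9 passed without Combo 1 (0.0212% of all genes), 1 without Combo 3 (1.01%), and 5 without Combo 2 (8.84%) or 5-azacitidine 2 (7% of all genes).

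Cd72 averaged 7.88 ± 4.17 CPM in Combo, 29.1 ± 17.3 in 5-azacitidine, 53.1 ± 2.94 in PD-901 and 52.7 ± 10.5 in Vehicle libraries (SD, n = 3 each). In order of mean the groups were PD-901, Vehicle, 5-azacitidine and Combo, and of the neighbours in that order only Combo and 5-azacitidine differed by the test. Cd37 averaged 203 ± 19.9 CPM in Combo, 290 ± 16.5 in 5-azacitidine, 351 ± 48.4 in PD-901 and 322 ± 51.9 in Vehicle libraries (SD, n = 3 each), in the same order of groups, with no neighbours past the threshold. Fcmr averaged 8.78 ± 3.04 CPM in Combo, 14.6 ± 6.54 in 5-azacitidine, 25.4 ± 8.31 in PD-901 and 9.29 ± 1.10 in Vehicle libraries (SD, n = 3 each). Its order was PD-901, 5-azacitidine, Vehicle and Combo, again with no neighbours apart by the test.

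The first comparison asks what the combination did relative to no drug. In Combo marrow Cd72 fell by 2.75 ± 0.40 on the log2 scale against Vehicle marrow (6.73-fold lower, 95% interval -3.61 to -1.89, adjusted p = 0.00301 by edgeR). Cd37 fell by 0.67 ± 0.14 (1.59-fold lower, 95% interval -0.98 to -0.36, adjusted p = 0.00921 by edgeR). Of all tested genes 7.97% were called lower and 5.78% higher in this comparison, against 2 and 0 of the 9. For both genes all 3 Combo libraries were below all 3 Vehicle libraries, which held for 15.9% of all genes. The other 7 genes were spread around no change, and the median of the 9 was -0.08, against 0.01 over all genes.

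Cr2 stood on the other side, at 1.51 ± 0.63 (95% interval 0.18 to 2.84), with all 3 Combo libraries above the Vehicle libraries, as for 16.1% of all genes, but an edgeR adjusted p of 0.128. It was the single gene of the 9 higher at an unadjusted p under 0.05, where 12.9% of all genes were, and DESeq2 and limma-voom called none higher. Cd22 was at -0.64 ± 0.30 (adjusted p = 0.180), Ms4a1 at -0.37 ± 0.40 (adjusted p = 0.620) and Fcmr at -0.08 ± 0.33 (adjusted p = 0.919) by edgeR. Fcer2a was at 0.45 ± 0.41, Cxcr5 at 0.57 ± 0.48 and Bank1 at -0.05 ± 0.27. The intervals of these genes still allowed changes of about the size of the Cd37 difference, for example -0.78 to 0.62 for Fcmr and -0.63 to 0.52 for Bank1. Leaving out Combo 2 moved Cd22 past the threshold (-0.98, adjusted p = 0.0423 by edgeR).

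With the sex-linked transcripts as a covariate, Cd72 was at -2.16 (adjusted p = 0.0774) and Cd37 at -0.84 (adjusted p = 0.0872) by edgeR, so neither was called, and 0.00572% of all genes were then called lower. Cd72 kept its call when any 1 library was left out (-3.26 to -2.46), and Cd37 lost it without Vehicle 1 (-0.51, adjusted p = 0.0550 by edgeR), without the 4 libraries low in Lyz2 (-0.61, adjusted p = 0.277) and without the 5 libraries with both kinds of transcript (-0.55, adjusted p = 0.453). The first of these 2 reduced fits sets only Combo 3 against Vehicle 3, and the second sets the 3 Combo libraries, which hold Y-linked transcripts and no Xist, against Vehicle 2, which holds Xist alone, so drug and library kind cannot be told apart in it. Among the 6 libraries with Y-linked transcripts and no Xist, Cd72 was at 6.62, 12.5 and 4.50 CPM in Combo, 16.3 and 22.2 CPM in 5-azacitidine and 50.4 CPM in PD-901 libraries. In the same libraries Cd37 was at 196, 226 and 188 CPM in Combo, 272 and 297 CPM in 5-azacitidine and 406 CPM in PD-901. These libraries include none of the Vehicle group and 1 of the PD-901 group, so no test was made among them. The gene that shares exons with Cd72, Tesk1, was at -0.80 ± 0.32 (adjusted p = 0.110 by edgeR) in Combo against Vehicle marrow, and its part in the Cd72 counts was not tested.

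**Figure D2:**
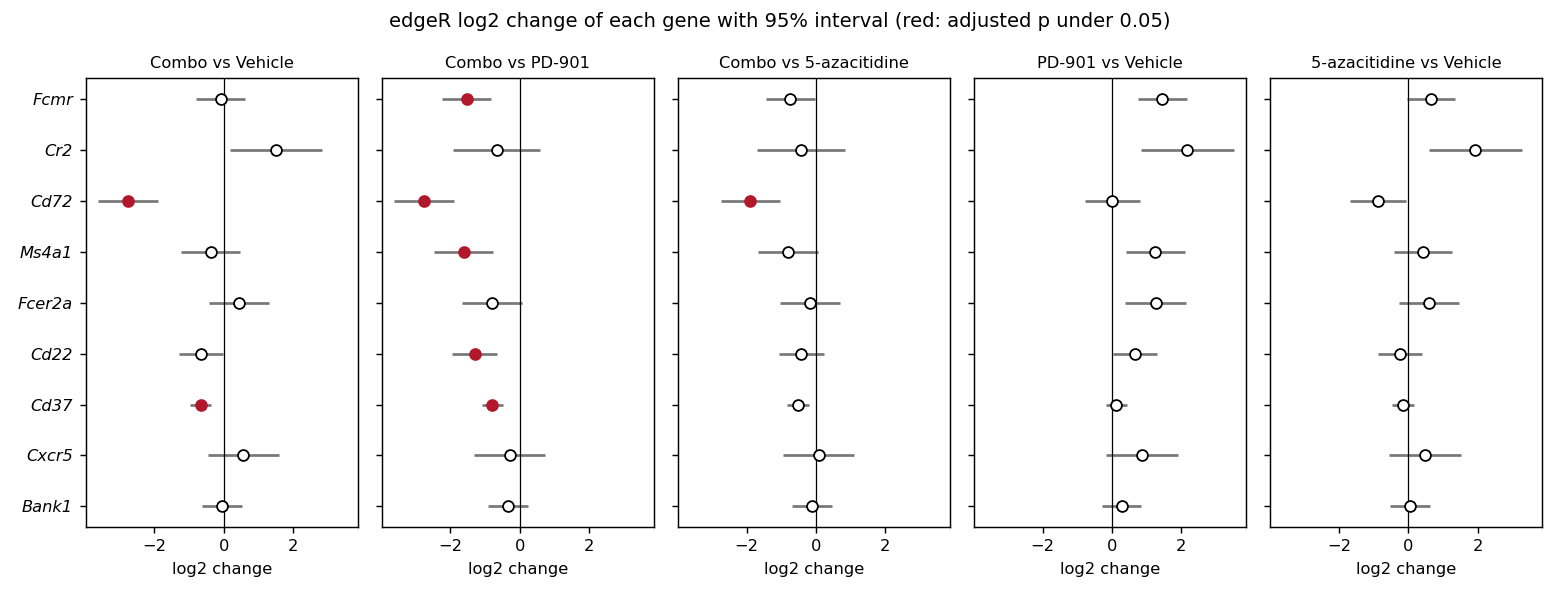
edgeR log2 change of each gene (points) with its 95% interval (bars) in 5 comparisons, red where the adjusted p was under 0.05. Cd72 and Cd37 are red against Vehicle, 5 genes are red against PD-901, and none is red between a single agent and Vehicle.

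Against PD-901 alone, Combo marrow held less of 5 of the 9 genes, where 5.12% of all tested genes were called lower and 1.69% higher. Cd72 fell by 2.76 ± 0.40 (6.77-fold lower, adjusted p = 0.00306), Fcmr by 1.53 ± 0.33 (2.89-fold lower, adjusted p = 0.0128) and Ms4a1 by 1.62 ± 0.40 (3.07-fold lower, adjusted p = 0.0270) in edgeR's test. Cd22 fell by 1.30 ± 0.30 (2.47-fold lower, adjusted p = 0.0186) and Cd37 by 0.79 ± 0.15 (1.73-fold lower, adjusted p = 0.00580) in the same test. In these 5 genes every Combo library was below every PD-901 library, which held for 15% of all genes. DESeq2 and limma-voom each called 5 of the 9 lower, against 8.31% and 5.65% of all genes.

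The other 4 genes had negative changes that passed no threshold, with Cr2 at -0.66 ± 0.59, Fcer2a at -0.81 ± 0.41, Cxcr5 at -0.29 ± 0.48 and Bank1 at -0.33 ± 0.27. The median of the 9 was -0.81, against 0.01 over all genes. This comparison and that with Vehicle share the Combo libraries, so their values are not independent. Fcmr stood at -0.08 ± 0.33 against Vehicle and -1.53 ± 0.33 against PD-901, and Ms4a1 at -0.37 ± 0.40 and -1.62 ± 0.40 in the same order, whereas Cd72 was at -2.75 ± 0.40 and -2.76 ± 0.40.

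Cd72 and Cd37 kept their calls against PD-901 in all 22 alternative fits. The calls of the other 3 depended on which libraries were used. By edgeR's adjusted p, Fcmr lost its call without PD-901 1 (0.0567), Combo 1 (0.0722) or Combo 3 (0.0659). Cd22 lost it without PD-901 1 (0.0545), PD-901 2 (0.0711), Combo 1 (0.0945) or Combo 3 (0.0897). Ms4a1 lost it without PD-901 1 (0.0849), PD-901 2 (0.0741), PD-901 3 (0.0550), Combo 1 (0.106) or Combo 3 (0.114). With the sex-linked covariate the log2 changes were -1.40 for Fcmr (adjusted p = 0.0525), -1.27 for Ms4a1 (adjusted p = 0.100) and -1.003 for Cd22 (adjusted p = 0.0863) by edgeR. All 3 calls also ended without the 4 libraries low in Lyz2, at -1.835 for Fcmr, -1.71 for Cd22 and -1.78 for Ms4a1. That fit leaves Combo 3 alone in its group. Without the 5 libraries with both kinds of transcript, Cd22 (-1.26) and Ms4a1 (-1.65) lost their calls. PD-901 1 is then alone in its group.

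Against 5-azacitidine alone, Cd72 was the only one of the 9 called in Combo marrow, where it fell by 1.89 ± 0.39 (3.71-fold lower, adjusted p = 0.0389 by edgeR), and 1.07% of all tested genes were called lower and 0.252% higher. All 3 Combo libraries were below all 3 5-azacitidine libraries for Cd72 and for Cd37, as for 9.54% of all genes. Cd37 was at -0.52 ± 0.14 (adjusted p = 0.0883 by edgeR) and was called by DESeq2 (adjusted p = 0.0102), which called 4.35% of all genes lower. Fcmr was at -0.74 ± 0.33, Ms4a1 at -0.80 ± 0.40, Cd22 at -0.42 ± 0.30, Cr2 at -0.42 ± 0.60, Fcer2a at -0.16 ± 0.41, Bank1 at -0.10 ± 0.27 and Cxcr5 at 0.09 ± 0.48, none of them past the threshold.

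The Cd72 call between Combo and 5-azacitidine was close to the threshold and was lost in 13 of 22 alternative fits, with log2 changes between -2.70 and -1.29 over all of them. Leaving out 1 library ended it for Combo 1 (-1.78, adjusted p = 0.196), Combo 3 (-1.60, 0.157), 5-azacitidine 2 (-1.30, 0.0957) and 5-azacitidine 3 (-2.05, 0.102) in edgeR. It also ended without Vehicle 2 (adjusted p = 0.0624), PD-901 2 (0.0660) or PD-901 3 (0.0613), libraries of neither group compared, with 0.329%, 0.451% and 0.698% of all tested genes then called lower. Without Combo 2 the count of called genes was 2, as Cd37 passed at -0.60 (adjusted p = 0.0472 by edgeR), with 2.83% of all genes called lower.

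For the single agents, PD-901 marrow held the highest group means, with Cd72 nearly level between PD-901 (53.1 CPM) and Vehicle (52.7 CPM) libraries. No gene of the 9 and no gene at all (0% of 17475 higher, 0% lower) was called against Vehicle marrow. At an unadjusted p under 0.05, 5 of the 9 were higher and none lower, where 2.71% of all genes were higher at that level. These were Fcmr at 1.45 ± 0.33, Cr2 at 2.17 ± 0.63, Ms4a1 at 1.25 ± 0.40, Fcer2a at 1.26 ± 0.41 and Cd22 at 0.66 ± 0.30, each with an adjusted p of 0.960 in edgeR. For Fcmr, Cr2, Ms4a1 and Cd22 all 3 PD-901 libraries were above all 3 Vehicle libraries, as for 6.83% of all genes. DESeq2 and limma-voom called none of the 9.

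The remaining genes were at 0.87 ± 0.48 for Cxcr5, 0.28 ± 0.27 for Bank1, 0.13 ± 0.15 for Cd37 and 0.01 ± 0.37 for Cd72 in PD-901 against Vehicle marrow. The median of the 9 was 0.87, against 0.01 over all genes. The interval for Cd72 ran from -0.78 to 0.80, which leaves room for changes in either direction. PD-901 3 was the lowest library of its group for 7 of the 9 genes and PD-901 2 the highest for 7. When each of the 12 libraries was left out in turn, Fcmr stayed between 1.28 and 1.70 and Cxcr5 between 0.17 and 1.16, in every case without a call.

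In 5-azacitidine marrow none of the 9 was called against Vehicle marrow, where edgeR called 0.00572% of all genes higher and 0% lower. At an unadjusted p under 0.05, 1 of the 9 was higher and 1 lower, against 8.08% and 7.22% of all genes, and limma-voom called none. Cr2 was at 1.93 ± 0.63 (adjusted p = 0.182 by edgeR), with every 5-azacitidine library above every Vehicle library, as for 10.8% of all genes, and DESeq2 called it (adjusted p = 0.0487), as it called 1.67% of all genes higher. Cd72 was at -0.86 ± 0.37 (adjusted p = 0.297 by edgeR), and Fcmr was at 0.65 ± 0.33. Ms4a1 was at 0.43 ± 0.40, Fcer2a at 0.61 ± 0.41, Cxcr5 at 0.49 ± 0.49, Bank1 at 0.05 ± 0.27, Cd37 at -0.15 ± 0.15 and Cd22 at -0.23 ± 0.30. The single library 5-azacitidine 2 was the highest of its group for all 9 genes and is also the 1 library of that group that held both Xist and Y-linked transcripts. Without it Cd72 was at -1.45 (adjusted p = 0.0601 by edgeR) and Ms4a1 at -0.19.

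Set side by side, 5-azacitidine marrow had lower mean levels than PD-901 marrow for all 9 genes, with a median of -0.65 against -0.01 over all genes. None was called, and 0% of all genes were called in either direction by edgeR. At an unadjusted p under 0.05, 3 of the 9 were lower, against 4.24% of all genes, with Cd22 at -0.89 ± 0.30, Fcmr at -0.79 ± 0.33 and Cd72 at -0.87 ± 0.37. DESeq2 and limma-voom called none of the 9. The smallest of the 9 differences was that of Bank1, at -0.23 ± 0.27.

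The design also allows a test of whether the combination departed from the sum of the single-agent changes on the log2 scale. All 9 estimates were below 0, that is, Combo marrow held less than the sum of the single-agent changes would give, with a median of -1.42 against -0.02 over all genes. No gene was called by edgeR, among the 9 or among all 17475 (0% higher, 0% lower). At an unadjusted p under 0.05, 7 of the 9 were lower, where 6.21% of all genes were. Fcmr was at -2.18 ± 0.47 (adjusted p = 0.121), Ms4a1 at -2.05 ± 0.56 (adjusted p = 0.200), Cd72 at -1.90 ± 0.54 (adjusted p = 0.216) and Cr2 at -2.59 ± 0.86 (adjusted p = 0.280) by edgeR. DESeq2 called 3 of the 9, Fcmr (adjusted p = 0.00208), Cd72 (adjusted p = 0.0228) and Ms4a1 (adjusted p = 0.0228), where it called 1.22% of all genes lower, and limma-voom called none. Without 5-azacitidine 1, Fcmr passed in edgeR at -2.32 (adjusted p = 0.0438), with 0.707% of all genes called lower.

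The 9 genes were correlated over the 12 libraries to differing degrees, here given as a description of log2 CPM in libraries that also share their group and depth. The correlation of a gene with the mean of the other 8 was 0.96 for Fcmr, 0.90 for Ms4a1, 0.86 for Cd22, 0.79 for Fcer2a, 0.79 for Bank1, 0.63 for Cr2, 0.59 for Cd37, 0.56 for Cd72 and 0.49 for Cxcr5 (Pearson's r, n = 12). After the group means were taken out, it was 0.97 for Fcmr, 0.88 for Bank1 and 0.87 for Cr2, but 0.65 for Cd72, 0.54 for Cxcr5 and 0.42 for Cd37. Cd72 and Cd37, the pair that fell in Combo marrow against both Vehicle and PD-901, had an r of 0.87 over the 12 libraries and 0.24 within groups. Combo 2 was the highest library of the Combo group for all 9 genes, as 5-azacitidine 2 was in its group.

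**Figure D3:**
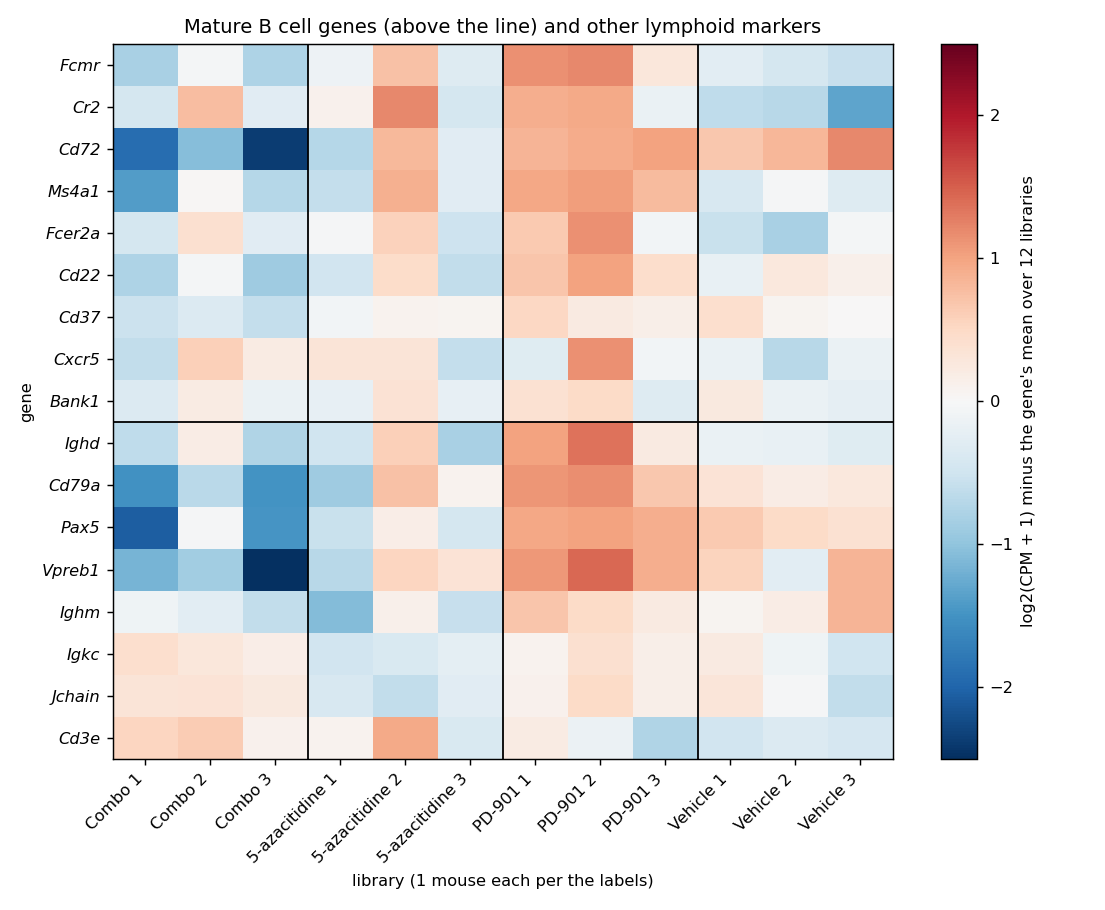
log2(CPM + 1) of each gene minus its mean over the 12 libraries (colour, from -2.5 to 2.5), for the 9 mature B cell genes above the line and 8 other lymphoid genes below it, with libraries in columns by group. Combo 2 and 5-azacitidine 2 are less blue or redder than their group mates for most B lineage genes, while Igkc and Jchain are not highest in 5-azacitidine 2.

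The promoters of Cd72, Cd37, Fcmr and Cd22, each called lower in Combo against PD-901 marrow, are shown as a description of sequence. 5-azacitidine acts on DNA methylation at CG dinucleotides, but no link between these sequences and the changes was tested. Methylation was not measured here. RefSeq windows of GRCm38.p6, from 250 bases before to 50 after a start site, matched 7 of the 9 genes with 9 windows, and Ms4a1 and Cxcr5 are named only. Capitals mark matches, on either strand, to 3 of 4 motifs searched: GAGGAAGT of the PU.1 type, the palindrome of the EBF type (TCCC and GGGA with any pair of bases between them) and the E-box CAGGTG. The fourth, the octamer ATTTGCAT bound by Oct factors, gave no match in the 7 genes. No matches overlapped. The windows are Cd72 at chr4:43454577-43454876 (minus strand), Cd37 at chr7:45238790-45239089 (minus strand), Fcmr at chr1:130865527-130865826 (plus strand) and Cd22 at chr7:30878979-30879278 (minus strand), each written 5′ to 3′.
Cd72: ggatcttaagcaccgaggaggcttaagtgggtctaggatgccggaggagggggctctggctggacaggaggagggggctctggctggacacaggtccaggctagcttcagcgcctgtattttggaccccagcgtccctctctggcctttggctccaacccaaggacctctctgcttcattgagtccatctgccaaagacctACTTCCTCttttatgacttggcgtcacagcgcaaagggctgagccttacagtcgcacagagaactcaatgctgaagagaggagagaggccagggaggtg
Cd37: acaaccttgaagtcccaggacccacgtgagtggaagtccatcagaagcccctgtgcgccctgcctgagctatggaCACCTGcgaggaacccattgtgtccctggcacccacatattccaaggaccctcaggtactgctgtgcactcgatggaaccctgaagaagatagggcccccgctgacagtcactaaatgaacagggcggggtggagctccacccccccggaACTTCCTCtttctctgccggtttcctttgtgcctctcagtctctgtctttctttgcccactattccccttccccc
Fcmr: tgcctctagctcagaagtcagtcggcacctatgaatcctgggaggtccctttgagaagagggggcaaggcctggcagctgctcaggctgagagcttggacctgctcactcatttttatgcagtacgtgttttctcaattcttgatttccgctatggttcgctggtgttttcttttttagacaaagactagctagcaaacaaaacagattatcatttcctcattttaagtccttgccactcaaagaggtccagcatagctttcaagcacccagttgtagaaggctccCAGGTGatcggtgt
Cd22: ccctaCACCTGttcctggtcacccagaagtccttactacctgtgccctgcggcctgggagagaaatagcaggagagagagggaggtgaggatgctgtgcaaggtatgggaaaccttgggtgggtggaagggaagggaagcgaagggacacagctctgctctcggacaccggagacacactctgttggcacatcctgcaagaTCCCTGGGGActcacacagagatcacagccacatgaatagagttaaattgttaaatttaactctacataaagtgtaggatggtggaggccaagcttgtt

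GAGGAAGT was found in 2 of the 9 windows, that of Cd72 at 49 bases and that of Cd37 at 25 bases before the start site, and in 3.2% of all 32851 promoter windows. The EBF type palindrome was found in 1 of the 9, that of Cd22, against 0.904% of all windows. CAGGTG was found in 6 of the 9, against 20.2%, and ATTTGCAT in none, against 1.74%. A match describes these letters in this window and is not evidence of binding. The 9 windows of the 7 genes held 3 to 14 CG dinucleotides each, with 7 for Cd72, 8 for Cd37, 5 for Fcmr and 4 for Cd22, against a median of 7 (quartiles 3 and 20) over all windows. In the mm10 annotation the genes lie at 4:43446462-43454628 (Cd72), 7:45233632-45239115 (Cd37), 1:130865669-130880791 (Fcmr), 7:30865402-30880342 (Cd22) and 19:11249675-11266241 (Ms4a1). Cr2 lies at 1:195136811-195176716, Fcer2a at 8:3681737-3694175, Cxcr5 at 9:44511787-44561877 and Bank1 at 3:136053363-136326066. Cd22 shares 9.5% of its exon bases with the antisense gene Gm29439, which had 0 counts, Cxcr5 shares 3.3% with Bcl9l, and Cd37 shares 13 bases with Tead2.

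Among other genes of the B lineage, most of the precursor genes were lower in Combo marrow. In Combo against Vehicle marrow 7.97% of all tested genes were called lower. With the sex-linked covariate 1 of 17475 genes (0.00572%) was called lower. At most 1 of the genes said below to fall against Vehicle could thus keep its call. Of 14 precursor genes, 11 fell in Combo against Vehicle marrow, with a median of -1.88, including Rag2, the recombinase subunit (-2.30 ± 0.36, adjusted p = 0.00301), and Ebf1, the B lineage transcription factor (-2.26 ± 0.39, adjusted p = 0.00378), by edgeR. Of 19 genes of B cell receptor signalling, 14 fell, with a median of -0.92, among them the receptor chain Cd79a (-1.47 ± 0.33, adjusted p = 0.0123) and the kinase Blk (-2.02 ± 0.35, adjusted p = 0.00378) by edgeR. That list also holds genes of many blood cells such as Lyn (-0.92 ± 0.15) and Ptpn6, the gene of SHP-1 (-0.92 ± 0.15). Of 25 other genes of mature B cells, 6 fell, with a median of -0.51, among them the transcription factor gene Spib (-2.49 ± 0.44, adjusted p = 0.00479), Fcrla (-2.15 ± 0.46, adjusted p = 0.00956) and the lymphotoxin gene Ltb (-1.12 ± 0.25, adjusted p = 0.0102) by edgeR. Ighd, the constant region of IgD and a marker of the mature stage, was at -0.13 ± 0.37 (adjusted p = 0.882).

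Summed over the 14 precursor genes, levels were 133 to 318 CPM in Combo, 275 to 497 in 5-azacitidine, 557 to 651 in PD-901 and 499 to 571 in Vehicle libraries. Summed over the 9 mature B cell genes, of which Cd37 makes up most, they were 242 to 322 CPM in Combo, 350 to 470 in 5-azacitidine, 463 to 586 in PD-901 and 414 to 490 in Vehicle libraries. In both sums every Combo library was below every PD-901 and every Vehicle library. Among single genes this held for 15% of all tested genes against PD-901 and 15.9% against Vehicle. Differences between the lists were not tested.

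Plasma cell and immunoglobulin genes gave few calls in Combo against Vehicle marrow, where 7.97% of all tested genes were called lower and 5.78% higher. With the sex-linked covariate 0.00572% of all tested genes were called in each direction. Of 9 plasma cell genes 2 fell in Combo against Vehicle marrow, the transcription factor gene Irf4 (-1.83 ± 0.30) and Sdc1 (-1.03 ± 0.31), which encodes CD138, while Jchain was at 0.37 ± 0.19 (adjusted p = 0.226 by edgeR). Of 12 immunoglobulin constant genes 1 rose, Ighg2b (1.23 ± 0.34, adjusted p = 0.0283 by edgeR), and none fell, with Ighm at -0.73 ± 0.28 and Igkc at 0.39 ± 0.17. Of 14 T cell genes none was called in Combo against Vehicle marrow, with Cd3e at 1.02 ± 0.39 (adjusted p = 0.0969 by edgeR), and their summed levels were 106 to 150 CPM in Combo and 90.9 to 136 CPM in Vehicle libraries.

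Genes of other antigen-presenting cells were also lower in Combo against Vehicle marrow, where 7.97% of all tested genes were called lower. With the sex-linked covariate that share was 0.00572%. Whether these genes moved with Cd72 and Cd37 was not tested. Of 12 dendritic cell genes 10 fell in Combo against Vehicle marrow, with summed levels of 148 to 196 CPM in Combo and 326 to 585 CPM in Vehicle libraries. Siglech, which marks plasmacytoid dendritic cells, was at -2.38 ± 0.53 (adjusted p = 0.0132) and Itgax, which encodes CD11c, at -2.18 ± 0.37 (adjusted p = 0.00378) by edgeR. Of 10 MHC class II genes 5 fell, with summed levels of 596 to 663 CPM in Combo and 1229 to 4451 CPM in Vehicle libraries. Follicular dendritic cells also carry Cr2. Of the genes listed for stroma and these cells, Madcam1 did not exceed 0.102 CPM. Cxcl13 was at 1.265 CPM in Vehicle 3, 0.923 CPM in 5-azacitidine 1, 0.125 CPM in 5-azacitidine 2 and 0 in the other 9 libraries. The part of these cell types in the levels of the 9 genes was not tested.

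Against PD-901, the same lists gave 10 of 14 precursor genes lower in Combo marrow (median -2.21), 10 of 19 genes of B cell receptor signalling (median -0.81) and 6 of 25 other mature B cell genes (median -0.74). Of all tested genes 5.12% were called lower in this comparison, and 3.07% with the sex-linked covariate. Cd79a was at -2.21 ± 0.34. Ighd was at -1.31 ± 0.37 (adjusted p = 0.0515 by edgeR), with levels of 18.5, 33.5 and 17.1 CPM in Combo, against 60.0, 76.8 and 34.3 CPM in PD-901 libraries. Every Combo library was below every PD-901 library for this gene, as for 15% of all tested genes. Of 12 dendritic cell genes 5 fell, of 9 plasma cell genes 1, and none of the 10 MHC class II, 12 immunoglobulin constant or 14 T cell genes was called. In PD-901 against Vehicle marrow no gene of any list was called, with medians of 0.41 for the precursor genes, -0.06 for B cell receptor signalling and 0.32 for the other mature B cell genes.

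**Figure D4:**
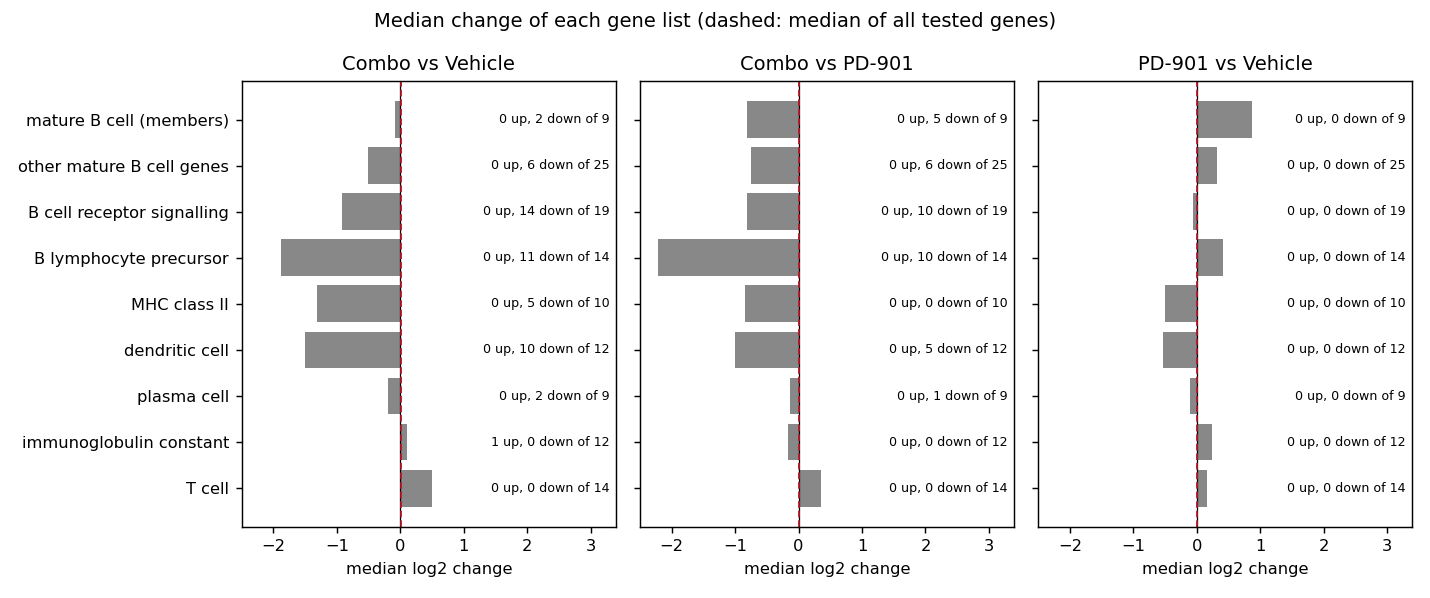
Median log2 change (bars) of the 9 mature B cell genes and of 8 other gene lists in 3 comparisons, with the number of genes called higher (up) and lower (down) of those tested at the right and the median of all tested genes as a dashed line. Against Vehicle the precursor list has the lowest median, -1.88, and the 9 mature B cell genes lie at -0.08.

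The tested genes whose pattern was most like that of the 9 were found by Pearson correlation, over the 12 libraries, of log2 CPM with the mean of the 9 standardised genes. The first 10 were Ighd (r = 0.96), H2-DMb2 (0.92), Gm30411 (0.90), S1pr1 (0.89), H2-Ob (0.89), Gm19951 (0.88), Arpc5l (0.87), H3f3a-ps1 (0.86), Snord89 (0.85) and Leng1 (0.84). H2-DMb2 and H2-Ob encode subunits of proteins that load or edit peptides on MHC class II, and S1pr1 encodes the receptor by which lymphocytes follow sphingosine-1-phosphate. Gm30411 averaged 0.194 CPM, so its place rests on few counts. The 10 were picked for likeness to the 9 over these same 12 libraries. Their changes between groups follow in large part from that choice, so the values below describe them and are no separate evidence. In Combo against PD-901 marrow 2 of the 10 fell, S1pr1 (-1.02 ± 0.28, adjusted p = 0.0361) and Arpc5l (-0.52 ± 0.13, adjusted p = 0.0277) by edgeR. Of all tested genes 5.12% were called lower there. None of the 10 was called in Combo against Vehicle marrow, with Ighd at -0.13 ± 0.37, H2-DMb2 at -0.13 ± 0.33, S1pr1 at -0.38 ± 0.28 and H2-Ob at -0.43 ± 0.33. In PD-901 against Vehicle marrow Ighd was at 1.18 ± 0.37 and S1pr1 at 0.64 ± 0.27, each with an adjusted p of 0.960 by edgeR.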

How the data were processed

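RNA from bone marrow cells of 12 mice, 3 in each of 4 groups and separate animals per the labels, was sequenced in pairs of reads. The values the authors deposited are unnormalized counts of reads, 1 per gene and library. Build mm10, STAR 2.7.2a, Subread 1.6.5, featureCounts and bcl2fastq are named in the submitters' processing notes, and neither an annotation release nor a strand setting is given there. How reads on exons shared by 2 genes were assigned, or whether they were counted at all, is therefore not known. Gene positions and exon lengths are those of GENCODE M21, in which 55094 of 56350 identifiers and all 9 genes were found. Promoter windows are RefSeq's for GRCm38.p6. Replicate numbers only name libraries. No library was a copy of another of its group, since chi-square over its degrees of freedom was at least 20.05 between any pair within a group. Pairs between groups were not compared.

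Counts were tested in R 4.3.3 with edgeR 4.0.16, using filterByExpr (minimum count 10, minimum total 15), TMM and a robust quasi-likelihood fit of 4 group means to 12 libraries with 8 residual degrees of freedom. The 7 contrasts and the joint test were adjusted by Benjamini-Hochberg over 17475 genes at a threshold of 0.05. Standard errors follow from the F statistic. The precision is set by 3 mice per group (common biological coefficient of variation 0.328) and, for the least abundant genes, by depth. Log2 CPM for correlations used a prior count of 2.

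The 9 genes and the other lists were chosen with earlier results of these data known. Named are all 9 genes, up to 4 genes of each other list with the lowest p in a comparison, the list markers Cd79a, Ighm, Igkc, Jchain, Cd3e and Siglech, and the 10 genes most like the 9. Ighd was named besides as the first of these. Library checks used Ptpn11, Lyz2 and Xist, and Tesk1, Gm29439, Bcl9l and Tead2 are named for shared exons, and Madcam1 and Cxcl13 as follicular dendritic cell markers. Alternatives were DESeq2 size factors, no TMM, no filter, a filter at 1 CPM in 3 libraries, DESeq2 1.42.0, limma-voom (limma 3.58.1), sex-linked transcripts as a covariate (0 for Y-linked only, 0.5 for both, 1 for Xist only), only the groups compared, and each library left out. Leaving out the 4 libraries lowest in Lyz2, or the 5 with Xist and Y-linked transcripts, was added after seeing the data. A marker of 1 list is not reported here.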

Additional observations from a re-analysis of the deposited data

How the results depend on the processing

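Of the 63 log2 changes of single genes, the DESeq2 size factors kept direction and call in 62, the stricter filter and limma-voom in 63, the fit without TMM in 58, DESeq2 in 57, the covariate in 53 and the fit without a filter in 49. The cause of the shifts was not tested, except that leaving libraries out leaves fewer samples. The count called lower in Combo against Vehicle (2) was 0 with the sex-linked covariate (0.00572% of all genes, against 7.97%). With single libraries left out it ran from 1 without Vehicle 1 (3.86% of all genes) to 3 without Combo 2 (8.67%). For Combo against PD-901 (5, with 5.12% of all genes) it was 2 with the covariate (3.07%). Left-out libraries gave 2 without PD-901 1 (2.08%), Combo 1 (1.73%) or Combo 3 (2.26%), and up to 5, as without Combo 2 (6%). For Combo against 5-azacitidine (1, with 1.07%) it was 0 with the covariate (0.933%), without TMM (0.555%) or with only the groups compared (0.013%). It was 2 with no filter (2.04%), DESeq2 (4.35%) or without Combo 2 (2.83%), and 0 to 2 over the left-out libraries. With no low-count filter the counts were 1 higher in Combo against Vehicle (3.11% of all genes) and 3 higher in PD-901 against Vehicle (0.0929%). They were also 1 higher in 5-azacitidine against Vehicle (0.653%, and 1 with DESeq2, 1.67%) and 1 lower in 5-azacitidine against PD-901 (0.313%). In the departure from additivity 4 were lower with no filter (0.836%) and 3 with DESeq2 (1.22%). There, leaving out a library gave 0 to 1, the 1 without 5-azacitidine 1 (0.707%). The joint test (3, with 6.96% of all genes) gave 7 with no filter (7.63%), 5 with the stricter filter (9.72%), 6 with DESeq2 (17.3%) and 5 with limma-voom (7.9%). It gave 0 with the covariate (0.0458%). Leaving out a library gave 0 to 5, with 0 without Combo 1 (0.0212%) and 5 without Combo 2 (8.84%) or 5-azacitidine 2 (7%). Changes of sign were all in genes not called. In Combo against Vehicle, without TMM Fcmr was at 0.002 and Bank1 at 0.035, with the covariate Fcmr at 0.213, Ms4a1 at 0.389 and Bank1 at 0.007, without the Lyz2-low libraries Fcer2a at -0.271 and Bank1 at 0.06, and without the 5 libraries Bank1 at 0.087; leaving out a library gave -0.406 to 0.062 for Fcmr and -0.242 to 0.128 for Bank1. In PD-901 against Vehicle, Cd72 was at -0.001 with DESeq2 or its size factors, -0.009 without TMM, -0.274 without the Lyz2-low libraries and -0.1 to 0.18 with a library left out. In 5-azacitidine against Vehicle, Cd22 was at 0.189 with the covariate, Cd37 at 0.028 without the Lyz2-low libraries, and without the 5 libraries Ms4a1 was at -0.424 and Bank1 at -0.046; leaving out a library gave -0.194 to 0.711 for Ms4a1 and -0.181 to 0.226 for Bank1. Without the 5 libraries Cxcr5 was at 0.556 in Combo against PD-901 and 0.29 in 5-azacitidine against PD-901, and in Combo against 5-azacitidine Cr2 was at 0.377, Fcer2a at 0.237, Cd22 at 0.037 and Bank1 at 0.133 (0.025 without TMM). Leaving out a library gave, in Combo against 5-azacitidine, -1.096 to 0.376 for Cr2, -0.509 to 0.241 for Fcer2a, -0.75 to 0.038 for Cd22, -0.272 to 0.398 for Cxcr5 and -0.289 to 0.136 for Bank1; in Combo against PD-901, -0.65 to 0.404 for Cxcr5; and in 5-azacitidine against PD-901, -1.043 to 0.127 for Cr2 and -0.679 to 0.319 for Cxcr5. Without TMM the median of all genes lay at 0.109 in Combo against PD-901, 0.134 in Combo against 5-azacitidine and 0.122 in the departure from additivity. Where an alternative left a group with 1 library, as without the Lyz2-low libraries (Combo and Vehicle) or without the 5 libraries (Vehicle and PD-901), that library was assumed to vary like the other groups. No paired analysis was possible because the labels give no replicate numbers shared between groups.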
